A study of Mus musculus with 36 samples.

Results

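The genes described here encode parts of the cyclic AMP response and the phosphodiesterases that end it. The 10 members, of 55536 genes listed in the count files, are the transcription factors *Creb1* and *Crem*, the orphan nuclear receptors *Nr4a1*, *Nr4a2* and *Nr4a3*, the phosphodiesterases *Pde3a*, *Pde3b*, *Pde4b* and *Pde4d*, and the adenylyl cyclase *Adcy3*. They were listed by name and not by a threshold on a measured value, although earlier results of these data were known. They were matched by gene identifier to GENCODE M21. All 10 were listed in the count files of all 36 libraries, which does not mean that each was detected there.

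RNA sequencing was performed on brown pre-adipocytes that had lost *Rxra* and then received it back, at days 0, 2 and 6 of differentiation. *Rxra* encodes the nuclear receptor RXRα. Clones 48 and 66 are 2 *Rxra*-/- lines, each grown from a single cell after Cas9 editing, and each was made to re-express either wild-type *Rxra* (*Rxra*WT) or *Rxra* with alanine in place of a serine (*Rxra*SA) from a retroviral vector. There were 3 replicates of each clone, genotype and day, or 12 libraries per day. An unedited parental line and an empty-vector line were not analysed here. All groups share the loss of the endogenous gene and the viral re-expression, and day 0 of the same lines is the reference in time. The deposited labels call the replicates technical and the study describes them as independent, so that p-values measure the spread between these libraries, which may be technical. The libraries of clone 48 were in pool 1 and those of clone 66 in pool 2, and clone and pool cannot be told apart.

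The medium matters for these genes. The cells were grown to confluence, which is day 0, in medium with insulin and triiodothyronine. Between days 0 and 2 the medium also held dexamethasone, isobutylmethylxanthine and indomethacin, and after day 2 it held insulin and triiodothyronine again. Isobutylmethylxanthine is a general inhibitor of phosphodiesterases and so raises cyclic AMP, dexamethasone activates the glucocorticoid receptor, and indomethacin inhibits cyclooxygenases. The hour of the day 2 harvest relative to the change of medium is not given in the sources used here. The agents were given together and to all cells, so their effects cannot be told apart from each other or from time in culture.

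Cyclic AMP is made by adenylyl cyclases after hormones such as noradrenaline bind receptors coupled to Gs. It activates protein kinase A, which phosphorylates CREB1, and CREB1 bound to the cyclic AMP response element (CRE) of a promoter then turns on genes that include *Crem*, the *Nr4a* family and *Pde4b* and *Pde4d*. Phosphodiesterases break cyclic AMP down, and several of them are themselves induced by it, which makes a negative feedback. In brown fat this pathway drives lipolysis and heat production. PDE3B carries the action of insulin against lipolysis in mature adipocytes.

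The promoters of the *Nr4a* genes are shown because the CRE core TGACG is dense in them, although the 3 genes moved in different directions below. The sequences are the 250 bases before the start annotated by RefSeq, 5′ to 3′ on the strand of the gene, on GRCm38.p6. Capitals mark TGACG, or CGTCA where the match lies on the other strand.
Nr4a1, chr15:101266596-101266845, plus strand: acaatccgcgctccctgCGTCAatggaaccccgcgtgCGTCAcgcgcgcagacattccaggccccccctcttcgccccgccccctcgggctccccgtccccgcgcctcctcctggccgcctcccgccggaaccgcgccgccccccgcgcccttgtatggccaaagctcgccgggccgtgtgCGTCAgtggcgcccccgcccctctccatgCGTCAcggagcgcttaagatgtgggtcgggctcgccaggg
Nr4a2, chr2:57124004-57124253, minus strand: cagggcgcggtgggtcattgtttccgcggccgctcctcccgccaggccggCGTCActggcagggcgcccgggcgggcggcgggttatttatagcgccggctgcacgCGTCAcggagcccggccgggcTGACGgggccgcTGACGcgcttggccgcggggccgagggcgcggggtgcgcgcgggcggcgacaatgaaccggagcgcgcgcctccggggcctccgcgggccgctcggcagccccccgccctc
Nr4a3, chr4:48045055-48045304, plus strand: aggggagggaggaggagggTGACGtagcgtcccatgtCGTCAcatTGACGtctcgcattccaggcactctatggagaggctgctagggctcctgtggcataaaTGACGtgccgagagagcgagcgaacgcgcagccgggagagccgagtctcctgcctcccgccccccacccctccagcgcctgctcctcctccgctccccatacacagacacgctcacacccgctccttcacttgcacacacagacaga
Pde4b, chr4:102421305-102421554, plus strand: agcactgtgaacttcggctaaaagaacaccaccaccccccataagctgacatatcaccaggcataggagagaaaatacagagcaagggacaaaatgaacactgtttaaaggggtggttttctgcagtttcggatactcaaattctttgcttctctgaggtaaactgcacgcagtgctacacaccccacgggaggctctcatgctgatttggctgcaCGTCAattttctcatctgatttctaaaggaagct
The promoter table held an entry for 7 of the 10 members and 11 entries in all. *Nr4a1*, *Nr4a2* and *Nr4a3* each held 4 matches to TGACG on either strand. The most upstream of the 4 *Pde4b* starts in the table held 1, and *Creb1*, *Pde4d*, *Adcy3* and the other *Pde4b* starts held 0. The GENCODE genes of *Nr4a1*, *Pde4b*, *Pde4d* and *Adcy3* begin upstream of these entries, at bases 101254269, 102087543, 108449948 and 4133103 of their chromosomes. Starts there were not in the table and were not read. Those of *Creb1* and *Nr4a3* begin inside their entries, at bases 64532645 and 48045153. The *Nr4a3* match 147 bases before the RefSeq start therefore lies within the GENCODE gene. Of 32851 promoters of this length in the table, 17.77% held at least 1 match and 0.137% held 4 or more. The full palindrome TGACGTCA, which contains the core on both strands, was in none of the entries of the members and in 1.546% of all promoters. AAAGGTCA, the element that NR4A receptors bind as monomers, was in none of them either and in 1.336% of all promoters. A match is a description of the letters and not a mapped binding site. *Crem*, *Pde3a* and *Pde3b* were not among the entries.

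**Figure D1:**
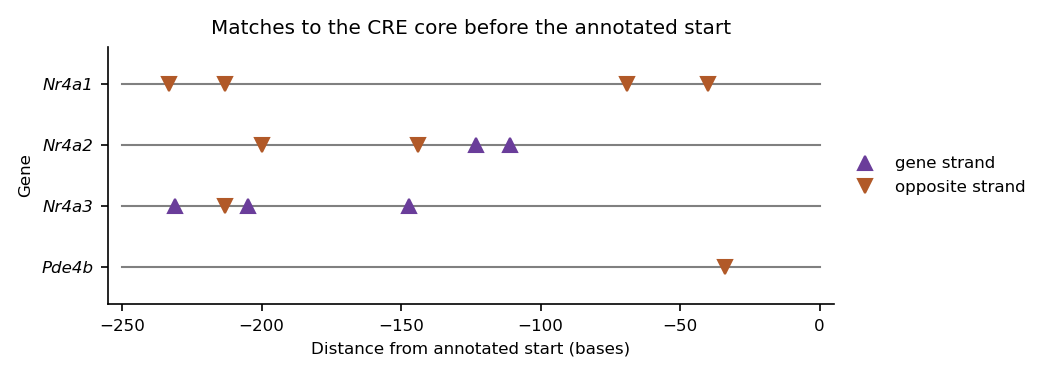
Positions of the CRE core TGACG in the 250 bases before the RefSeq start of *Nr4a1*, *Nr4a2*, *Nr4a3* and the most upstream *Pde4b* start in the promoter table. The horizontal axis is the distance from the start in bases, triangles pointing up and down mark matches on the gene strand and the opposite strand, and the 3 *Nr4a* genes have 4 matches each, and the *Pde4b* match lies 34 bases before the start.

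The libraries held 11351078 to 24349263 counts each (median 18338726). Levels are given as CPM, counts scaled to a common library total after TMM normalisation, or as RPKM, the same value per kilobase of exon, where genes are compared with each other. *Rxra* itself was read in every library, with a median over 9 libraries of 247 CPM for clone 48 *Rxra*WT, 282 CPM for clone 48 *Rxra*SA, 208 CPM for clone 66 *Rxra*WT and 237 CPM for clone 66 *Rxra*SA. The 9 libraries of a line span the days and varied widely, between 176.5 and 712.1, 170.4 and 621.4, 104.8 and 570.5, and 92.62 and 576.2 CPM in the same order. These counts do not separate the introduced from the edited gene. Among the markers of fat cells, *Adipoq* had a median of 1.14 CPM on day 0, 339 CPM on day 2 and 2105 CPM on day 6. The defining marker of brown fat, *Ucp1*, had at most 5 counts in any library, and *Cidea* and *Prdm16* had at most 27 and 21. These markers were thus at or near 0 in cells that the labels call brown. *Ebf2*, also listed here as a marker of brown adipocytes, was higher but varied widely between libraries. Its median was 8.67 CPM on day 0, with libraries between 0.143 and 32.46 CPM. On day 6 its median was 21.14 CPM, with libraries between 0.790 and 62.79 CPM. *Dlk1*, a marker of pre-adipocytes, had at most 1 count. The summed level of 8 markers of endothelial, immune, muscle, epithelial and glial cells was at most 1.25 CPM in any library.

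*Creb1* was the member with the most RNA before differentiation, and *Pde4b* took its place on day 2. On day 0, median levels per length were 8.52 RPKM for *Creb1*, 4.99 RPKM for *Pde4b*, 2.61 RPKM for *Nr4a1*, 2.47 RPKM for *Pde4d*, 1.57 RPKM for *Adcy3*, 1.09 RPKM for *Crem* and 0.701 RPKM for *Nr4a2*. *Creb1* and *Pde4b* each stood clear of the next gene, and from *Nr4a1* down to *Nr4a2* the ranges of neighbours overlapped. *Nr4a3* with 0.0636 RPKM and *Pde3b* with 0.00554 RPKM were close to the limit of detection. On day 2, *Pde4b* had 12.7 RPKM and *Creb1* 5.94 RPKM, although their ranges over 12 libraries overlapped. On day 6, *Creb1* again led with 6.66 RPKM and did not overlap the next gene, *Pde4b*, with 2.43 RPKM. *Crem* with 2.40 RPKM overlapped *Pde4b* on that day.

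*Pde3a*, which encodes the phosphodiesterase of heart and platelets, was not expressed at a level these libraries could measure. It had 2 counts in all 36 libraries, 1 on day 2 and 1 on day 6, both in clone 66. On day 0 it had 0 counts in 12 libraries, which allows at most 0.0140 CPM over the day, where 3 counts are taken as the limit and only counting error is covered. It did not pass the filter on low counts and was not tested. *Pde3b* and *Nr4a3* passed that filter mainly through the day on which they are high, so their passing is not evidence that they changed.

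**Figure D2:**
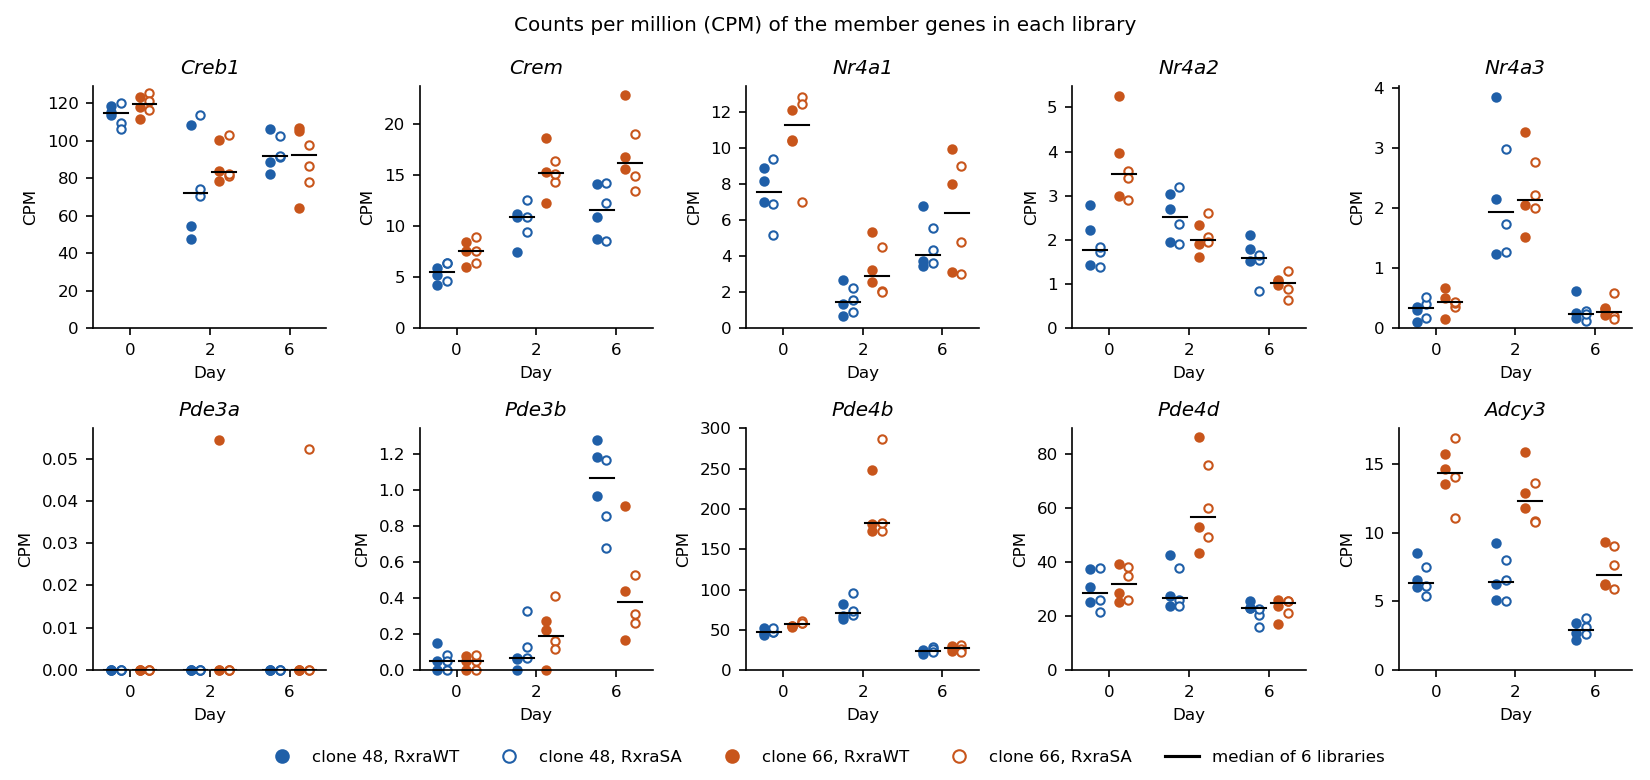
Level of each of the 10 members in each of the 36 libraries, with the day on the horizontal axis and CPM from 0 on the vertical axis, on a scale of its own in each panel (blue clone 48, orange clone 66, filled points *Rxra*WT, open points *Rxra*SA, black lines medians of 6 libraries). *Pde4b* on day 2 reaches 173 to 287 CPM in clone 66 and 63.8 to 95.4 CPM in clone 48.

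Between days 0 and 2, when the cocktail with isobutylmethylxanthine was present, 5 of 9 tested members rose and 2 fell (edgeR's quasi-likelihood test, Benjamini-Hochberg adjusted p below 0.05 over 16723 genes). The rise was largest for *Nr4a3*, followed by *Pde3b*, *Pde4b*, *Crem* and *Pde4d*, and *Nr4a1* and *Creb1* fell. Over all genes tested, 73.3% were called between these days, 35.8% higher and 37.5% lower, so a count of 7 called of 9 is close to the background. Of the called genes 48.9% were higher, and 33.6% when libraries were scaled by library size alone, which moved the median change of all genes to -0.27. The median change was 0.51 on the log2 scale over the 9 members and -0.02 over all genes. Markers of fat cells moved with the days. Of a list of 9 markers of brown adipocytes, 7 were tested and rose to day 2, and *Ucp1* and *Prdm16* were too low to test. The summed level of the list, which was carried by the general adipocyte genes *Fabp4*, *Adipoq*, *Pparg*, *Cebpa* and *Plin1*, went from 91.3 to 243 CPM on day 0 to 2797 to 5280 CPM on day 2 and 5412 to 9504 CPM on day 6. All 4 tested of 6 pre-adipocyte markers fell to day 2, from a sum of 255 to 465 CPM to one of 33.7 to 104 CPM, and had 42.1 to 168 CPM on day 6. Their part in the results was not tested, and in bulk RNA fewer cells of a type and less RNA per cell cannot be told apart.

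The *Nr4a* family encodes 3 related receptors that act without a known hormone and are textbook early targets of CREB, and its members did not move together. *Nr4a3* had a median of 0.381 CPM on day 0, with libraries between 0.0988 and 0.669 CPM, and of 2.09 CPM on day 2, with libraries between 1.24 and 3.84 CPM. On day 6 its median was 0.239 CPM and its highest library 0.624 CPM. Every day 2 library lay above every library of the other days. *Nr4a3* rose by 2.60 ± 0.24 (log2 fold change ± SE, adjusted p = 6.2e-12) to day 2 and fell by 2.91 ± 0.25 (adjusted p = 2.4e-12) to day 6. Days 6 and 0 differed by -0.31 ± 0.31, which was not called (adjusted p = 0.37). The counts behind these values are small, with 19 to 62 counts in a day 2 library and 2 to 14 in a library of day 0 or day 6.

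*Nr4a1* moved the other way. Its 12 libraries lay between 5.16 and 12.9 CPM on day 0 with a median of 9.15 CPM, between 0.691 and 5.34 CPM on day 2 with a median of 2.13 CPM, and between 2.99 and 9.96 CPM on day 6 with a median of 4.57 CPM. Within each clone the libraries of days 0 and 2 did not overlap. It fell by 1.96 ± 0.22 to day 2 (adjusted p = 7.9e-10), rose by 1.20 ± 0.22 from day 2 to day 6 (adjusted p = 1.4e-05) and on day 6 was still lower than on day 0, by a log2 fold change of -0.76 ± 0.21 (adjusted p = 0.0016).

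*Nr4a2* had medians of 2.84 CPM on day 0, 2.20 CPM on day 2 and 1.20 CPM on day 6. The change to day 2 was -0.28 ± 0.19 and was not called (adjusted p = 0.19), but it was called without clone 48 replicate 3, at -0.50 ± 0.18 (adjusted p = 0.015), and with scaling by library size alone, at -0.54 ± 0.19 (adjusted p = 0.012). From day 2 to day 6 *Nr4a2* fell by 0.85 ± 0.20 (adjusted p = 4.4e-04), and from day 0 to day 6 it fell by 1.13 ± 0.20 (adjusted p = 7.2e-06). On day 2 the 3 receptors thus had close levels per length, with medians of 0.607 RPKM for *Nr4a1*, 0.542 RPKM for *Nr4a2* and 0.350 RPKM for *Nr4a3* and overlapping ranges, whereas on day 0 *Nr4a1* stood at 2.61 RPKM and *Nr4a3* at 0.0636 RPKM.

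*Creb1*, the constitutive factor that protein kinase A activates by phosphorylation, fell to day 2. Its libraries lay between 106 and 125 CPM on day 0, between 47.5 and 114 CPM on day 2 and between 63.9 and 107 CPM on day 6. The level was tight on day 0 and spread on day 2, where the 4 libraries with replicate number 1, of both clones and genotypes, lay between 100 and 114 CPM and the other 8 between 47.5 and 84.0 CPM. It fell by 0.49 ± 0.10 to day 2 (adjusted p = 8.1e-05), and by 0.75 ± 0.11 with scaling by library size alone (adjusted p = 1.3e-07), and was lower on day 6 than on day 0 by a log2 fold change of -0.35 ± 0.10 (adjusted p = 0.0039), or -0.53 ± 0.11 with library size alone (adjusted p = 4.1e-05). The change from day 2 to day 6, 0.15 ± 0.10, was not called (adjusted p = 0.22), although it was called without clone 48 replicate 1, at 0.27 ± 0.11 (adjusted p = 0.031), and without clone 66 replicate 1, at 0.27 ± 0.11 (adjusted p = 0.027).

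*Crem* encodes a CREB relative, and an internal promoter of the gene makes ICER, a repressor induced by cyclic AMP. Gene counts do not separate ICER from the longer forms. *Crem* had a median of 6.41 CPM on day 0, with libraries between 4.27 and 8.96 CPM, of 12.5 CPM on day 2, with libraries between 7.50 and 18.7 CPM, and of 14.2 CPM on day 6, with libraries between 8.58 and 22.9 CPM. In each clone every day 2 and every day 6 library lay above every day 0 library. It rose by 0.99 ± 0.11 to day 2 (adjusted p = 4.4e-10) and was 1.13 ± 0.11 above day 0 on day 6 (adjusted p = 2.0e-11). Unlike *Nr4a3*, *Pde4b* and *Pde4d*, it was not called lower after the cocktail was withdrawn. The change from day 2 to day 6 was 0.15 ± 0.11 (adjusted p = 0.23), and 0.14 ± 0.06 with the replicate number as a block (adjusted p = 0.049). An antisense gene, *Gm6225*, overlaps 8.01% of the exon bases of *Crem*, and the counting did not use the strand.

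*Pde4b* and *Pde4d* encode phosphodiesterases specific for cyclic AMP, a major class in many cells. *Pde4b* had a median of 52.7 CPM on day 0, with libraries between 44.2 and 61.1 CPM, of 134 CPM on day 2, with libraries between 63.8 and 287 CPM, and of 25.7 CPM on day 6, with libraries between 20.1 and 30.6 CPM. The 12 libraries of each day lay apart from those of both other days. It rose by 1.31 ± 0.15 to day 2 (adjusted p = 2.4e-09), fell by 2.33 ± 0.16 to day 6 (adjusted p = 9.1e-15) and ended below its start, by a log2 fold change of -1.02 ± 0.15 (adjusted p = 3.6e-07). *Pde4d*, over both clones, was also called higher on day 2 and lower on day 6, but its rise was called in clone 66 alone and not in clone 48, as given below with the test of the difference. Its medians were 29.7, 43.0 and 22.9 CPM on days 0, 2 and 6, and the ranges of the days overlapped. It rose by 0.51 ± 0.15 to day 2 (adjusted p = 0.0040), which was lost with scaling by library size alone (0.25 ± 0.15, adjusted p = 0.13), and fell by 0.96 ± 0.16 to day 6 (adjusted p = 1.9e-06). Over the 12 means of clone, genotype and day, *Pde4b* and *Pde4d* had a Pearson correlation of 0.95 on the log2 scale and *Pde4b* and *Nr4a3* one of 0.85, as a description over means that share days and clones.

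*Pde3b* was low throughout and rose late. It had 12 counts in the 12 libraries of day 0, 33 on day 2 and 156 on day 6, with at most 22 in any library. Its median was 0.0505 CPM on day 0, 0.121 CPM on day 2 and 0.767 CPM on day 6, and every day 6 library, from 0.169 to 1.28 CPM, lay above every day 0 library, of which the highest had 0.153 CPM. The ratio of summed counts per total between days 6 and 0 was 14.0, with an exact 95% interval of 7.81 to 27.7 that covers counting error only. *Pde3b* rose by 2.13 ± 0.35 from day 2 to day 6 (adjusted p = 3.1e-06) and by 3.62 ± 0.42 from day 0 to day 6 (adjusted p = 1.7e-09). It passed the filter on low counts through day 6, mainly through clone 48, with 11 to 22 counts in a library against 3 to 17 in clone 66. *Pde3b* was thus tested because of the day and clone in which it is high. The rise to day 2, 1.49 ± 0.56 (adjusted p = 0.017), was not called without clone 66 replicate 2 (1.11 ± 0.61, adjusted p = 0.11) or without clone 66 replicate 3 (1.29 ± 0.64, adjusted p = 0.076).

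*Adcy3*, a membrane adenylyl cyclase, was not called different between days 0 and 2 and then fell. It had 5.39 to 8.54 CPM in clone 48 and 11.1 to 16.9 CPM in clone 66 on day 0, 5.07 to 9.30 CPM and 10.8 to 15.9 CPM on day 2, and 2.21 to 3.78 CPM and 5.89 to 9.30 CPM on day 6. The change to day 2 was -0.09 ± 0.11 (adjusted p = 0.48), but -0.35 ± 0.11 with scaling by library size alone (adjusted p = 0.0057). It fell by 0.96 ± 0.12 from day 2 to day 6 (adjusted p = 8.0e-09), and in each clone every day 6 library lay below every library of the earlier days. The antisense gene *Cenpo* overlaps 22.1% of the exon bases of *Adcy3*, so that its level is uncertain.

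From day 2 to day 6, after the cocktail was replaced, 2 of 9 members rose (*Pde3b* and *Nr4a1*) and 5 fell (*Nr4a3*, *Pde4b*, *Pde4d*, *Adcy3* and *Nr4a2*), where 62% of all genes tested were called, 31.9% higher and 30.1% lower. The median change of the members was -0.85, and 0.01 over all genes. *Nr4a3*, *Pde4b* and *Pde4d* were called higher to day 2 and lower to day 6, and *Nr4a1* the reverse. The day 2 libraries stand in both comparisons, so the directions are not independent of each other. Between days 0 and 6, 2 members rose and 6 fell, with 68.3% of all genes called, 32.9% higher and 35.4% lower.

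**Figure D3:**
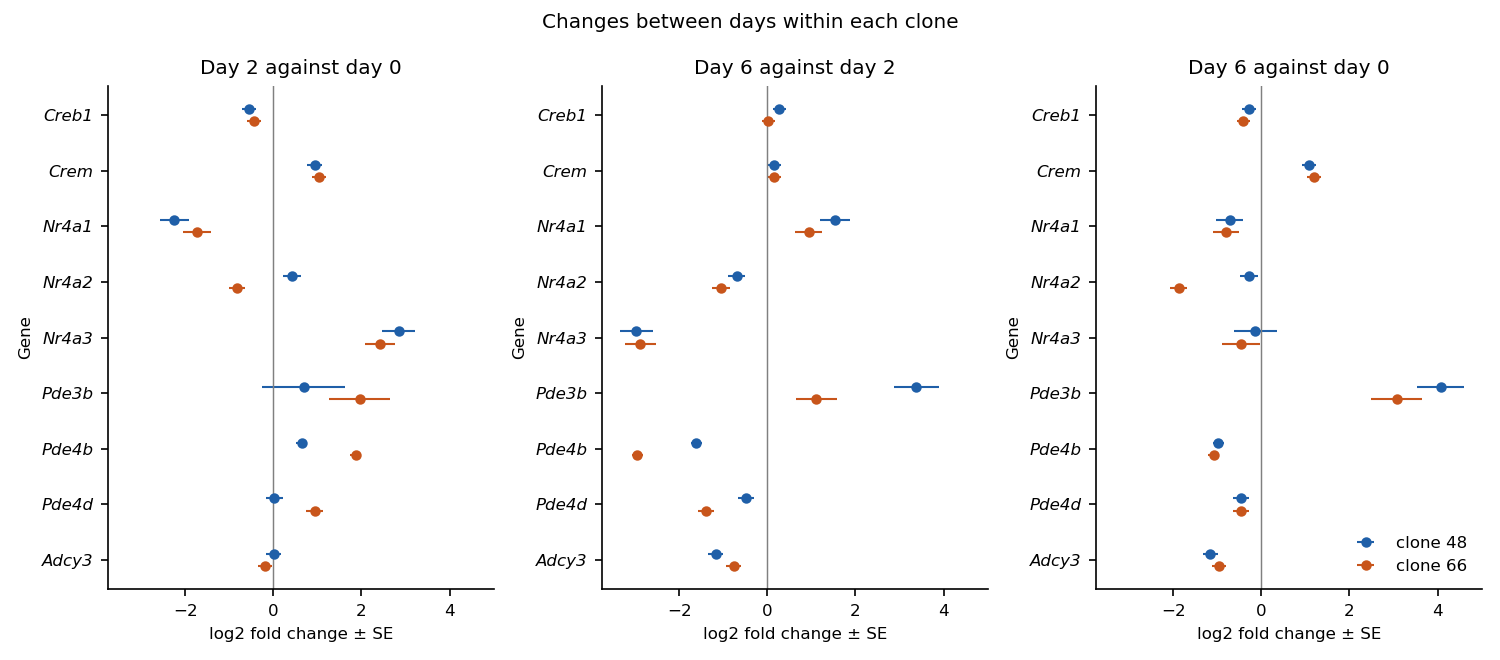
Log2 fold changes between days (horizontal axis) of the 9 tested members in clone 48 (blue) and clone 66 (orange), each point an estimate over 6 libraries per day with its standard error as a bar. *Nr4a3* and *Crem* have close estimates in both clones to day 2, while *Pde4b* has 0.64 in clone 48 and 1.87 in clone 66, and *Nr4a2* lies on opposite sides of 0.

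The response of *Pde4b* to the first 2 days was stronger in clone 66 than in clone 48. On day 0 the 6 libraries of clone 48 lay between 44.2 and 52.1 CPM and those of clone 66 between 53.3 and 61.1 CPM. On day 2 they lay between 63.8 and 95.4 CPM in clone 48, with a median of 70.6 CPM, and between 173 and 287 CPM in clone 66, with a median of 182 CPM. On day 6 the ranges overlapped. Within clone 48, 65.3% of all genes were called between days 0 and 2 (32.3% higher, 33.1% lower) and 51.1% between days 2 and 6 (26.3% and 24.9%), and within clone 66 61.6% (29.5% and 32.1%) and 50.5% (26.9% and 23.7%). *Pde4b* rose by 0.64 ± 0.12 in clone 48 (adjusted p = 3.0e-05) and by 1.87 ± 0.12 in clone 66 (adjusted p = 7.0e-14), and the difference between the rises was 1.23 ± 0.17 (interaction of clone and time, adjusted p = 1.1e-05). The later fall was also steeper in clone 66, by -1.33 ± 0.17 (adjusted p = 3.9e-06).

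The interaction was called between days 0 and 2 for 3 of 9 members, with 6.84% of all genes called (3.61% higher and 3.23% lower in clone 66), for 2 between days 2 and 6, with 6.18% called (3.15% and 3.03%), and for 1 between days 0 and 6, with 3.85% called (2.1% and 1.75%). With the replicate number as a block 2248, 2082 and 1369 genes were called in place of 1144, 1033 and 644, and again 3, 2 and 1 members. *Pde4d* had 23.7 to 42.6 CPM in clone 48 on day 2 and 43.3 to 86.1 CPM in clone 66, and its change from day 0 was 0.02 ± 0.18 in clone 48 (adjusted p = 0.92) and 0.93 ± 0.18 in clone 66 (adjusted p = 6.6e-05). The difference, 0.91 ± 0.26 (adjusted p = 0.029), was not called without clone 48 replicate 2 (0.84 ± 0.32, adjusted p = 0.20), clone 66 replicate 2 (0.98 ± 0.34, adjusted p = 0.11) or clone 66 replicate 3 (0.82 ± 0.26, adjusted p = 0.092), nor when the libraries of days 0 and 2 were fitted alone (0.91 ± 0.28, adjusted p = 0.060). That of the later fall, -0.92 ± 0.26 (adjusted p = 0.030), was not called without clone 48 replicate 1 (-0.88 ± 0.29, adjusted p = 0.061), clone 48 replicate 2 (-0.81 ± 0.32, adjusted p = 0.23), clone 66 replicate 2 (-1.03 ± 0.34, adjusted p = 0.11) or clone 66 replicate 3 (-0.74 ± 0.26, adjusted p = 0.13).

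The change of *Nr4a2* to day 2 also differed between the clones. In clone 48 its libraries lay between 1.38 and 2.79 CPM on day 0 and between 1.90 and 3.20 CPM on day 2, and in clone 66 between 2.90 and 5.26 CPM on day 0 and at no more than 2.60 CPM on day 2. The change to day 2 was 0.42 ± 0.20 in clone 48, which was not called (adjusted p = 0.059), and in clone 66 *Nr4a2* fell by 0.82 ± 0.19 (adjusted p = 3.3e-04). The difference was -1.25 ± 0.27 (adjusted p = 0.0031), and without clone 48 replicate 3 it was -0.96 ± 0.29 (adjusted p = 0.052). Between days 0 and 6 the difference was -1.61 ± 0.29 (adjusted p = 6.5e-04). *Pde3b* rose by 3.38 ± 0.51 from day 2 to day 6 in clone 48 (adjusted p = 2.2e-06) and by 1.11 ± 0.47 in clone 66 (adjusted p = 0.047). The difference between them, -2.27 ± 0.77, was not called (adjusted p = 0.080), but was called with edgeR's version 4 test (adjusted p = 0.047) and without clone 66 replicate 1 (-2.62 ± 0.73, adjusted p = 0.037). *Pde3b* passed the filter on low counts mainly through clone 48 on day 6, so these calls are not evidence that the clones differ.

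On single days the clones differed in *Adcy3* on all 3 days. It was higher in clone 66 by 1.10 ± 0.16 on day 0 (adjusted p = 6.5e-06), by 0.90 ± 0.16 on day 2 (adjusted p = 8.3e-05) and by 1.31 ± 0.17 on day 6 (adjusted p = 9.5e-07), and on each day every library of clone 66 lay above every library of clone 48. Of the 9 members, 3 were called on day 0, with 23.7% of all genes called (12.6% higher and 11.1% lower in clone 66), 5 on day 2, with 30% called (14.5% and 15.5%), and 4 on day 6, with 26.2% called (13.4% and 12.8%). *Pde4b* on day 2 was higher in clone 66 by 1.47 ± 0.12 (adjusted p = 1.1e-10) and *Pde4d* by 1.02 ± 0.19 (adjusted p = 8.7e-05). *Nr4a2* was higher in clone 66 on day 0, by 0.96 ± 0.19 (adjusted p = 2.8e-04).

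Several other calls between the clones were lost when single replicates were left out. *Nr4a2* was lower in clone 66 on day 6, by a log2 fold change of -0.64 ± 0.21 (adjusted p = 0.025), and without clone 48 replicate 2 or 3 or clone 66 replicate 1 or 2 the adjusted p was 0.075, 0.11, 0.095 and 0.12. *Crem* was higher in clone 66 by 0.46 ± 0.16 on day 0 (adjusted p = 0.037), 0.56 ± 0.16 on day 2 (adjusted p = 0.0066) and 0.57 ± 0.16 on day 6 (adjusted p = 0.0065). On day 0 its adjusted p was between 0.057 and 0.15 without any 1 of the replicates of clone 48 or without clone 66 replicate 1 or 2, and on day 6 it was 0.066 without clone 66 replicate 1, while the call on day 2 held in all 13 alternatives (highest adjusted p = 0.038). *Nr4a1* was higher in clone 66 on day 2 by 1.04 ± 0.34 (adjusted p = 0.021), which was not called without clone 48 replicate 1 (adjusted p = 0.081), clone 48 replicate 2 (adjusted p = 0.18) or clone 66 replicate 3 (0.62 ± 0.36, adjusted p = 0.24). *Pde3b* was lower in clone 66 on day 6, by a log2 fold change of -1.21 ± 0.36 (adjusted p = 0.012), and without clone 48 replicate 1 or clone 66 replicate 3 the adjusted p was 0.084 and 0.061. It was tested mainly because of the clone 48 libraries of that day, so this call is not evidence that the clones differ. *Creb1* was not called between the clones, except on day 2 without clone 48 replicate 1, when it was higher in clone 66 by 0.54 ± 0.13 (adjusted p = 0.0025) in place of 0.18 ± 0.15 (adjusted p = 0.40).

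The comparison of *Rxra*SA with *Rxra*WT, which asks what the alanine changes, gave no called member on any day. Called were 0 of 9 members and 0% of 16723 genes on each of days 0, 2 and 6, by edgeR's quasi-likelihood test and by DESeq2. At an unadjusted p below 0.05, edgeR's test passed 0 members and 139, 162 and 125 genes on the 3 days. These are fewer genes than that threshold passes by chance, in a fit that left the replicate pairs out. Deviations of paired libraries from their group means correlated by 0.71 on average. The absence of calls is therefore not evidence that the genotypes are equal. The 27 log2 fold changes of the members lay between -0.39 and 0.90. Without the sparsely counted *Pde3b* and *Nr4a3* they lay between -0.33 and 0.15, with standard errors between 0.15 and 0.32 from a fit that did not use the replicate numbers as pairs. The member with the smallest unadjusted p was *Nr4a2* on day 0, at -0.32 ± 0.26, where the median of 6 libraries was 2.89 CPM for *Rxra*WT and 2.37 CPM for *Rxra*SA (adjusted p = 1.00). On day 2 it was *Pde3b*, at 0.90 ± 0.65, with medians of 0.0635 and 0.144 CPM (adjusted p = 1.00). On day 6 it was *Nr4a2* again, at -0.33 ± 0.30, with medians of 1.31 and 1.09 CPM (adjusted p = 1.00).

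**Figure D4:**
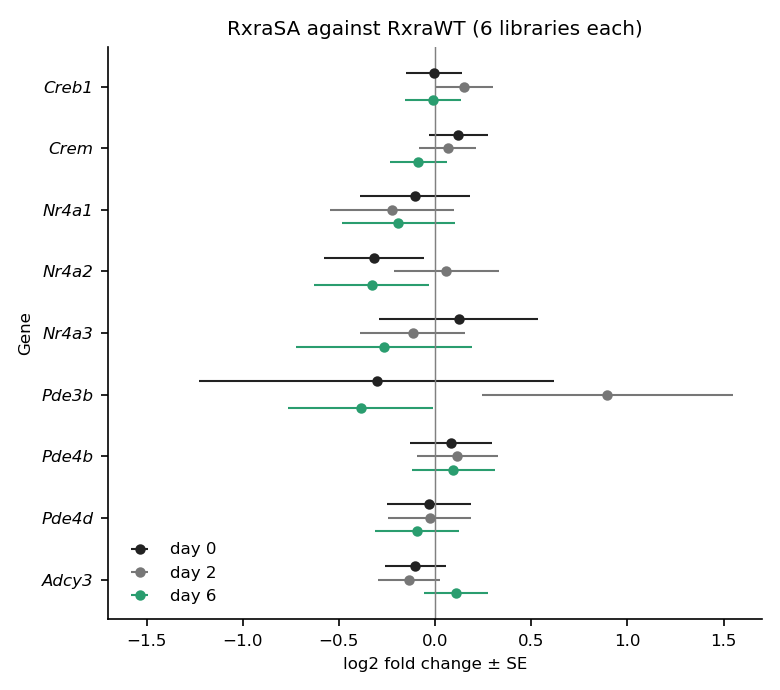
Log2 fold change of *Rxra*SA against *Rxra*WT (horizontal axis) for the 9 tested members on days 0, 2 and 6, with estimates over 6 libraries per genotype and day as points and standard errors as bars. All estimates but that of *Pde3b* on day 2, 0.90, lie between -0.39 and 0.15.

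Libraries of the 2 genotypes with the same clone, day and replicate number form pairs. *Pde4b* on day 2 was higher in *Rxra*SA in 6 of 6 pairs, and *Crem* on day 0 in 6 of 6. Their log2 fold changes were 0.11 ± 0.21 and 0.12 ± 0.15. Neither was called with clone and replicate number as a block shared by the days, and the pairs within a day were not fitted as blocks. They were the most one-sided of 27 member results and were singled out after their values were seen. The share of all genes with 6 of 6 pairs was not counted. The interaction of genotype and time was called for 0 of 9 members and 0% of genes in each of the 3 comparisons by edgeR and DESeq2. At an unadjusted p below 0.05, edgeR's test passed 0 members and 144, 153 and 128 genes (days 2 and 0, 6 and 2, and 6 and 0). These counts, too, are fewer than that threshold passes by chance, from the same fit without pairs. The smallest unadjusted p were those of *Pde3b* between days 2 and 0, at 1.20 ± 1.18, and between days 6 and 2, at -1.28 ± 0.75, and of *Crem* between days 6 and 0, at -0.21 ± 0.21 (adjusted p = 1.00 each).

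The rest of the pathway was read from lists of named genes, whose counts stand against 73.3% of all genes called to day 2 (35.8% higher, 37.5% lower) and 62% from day 2 to day 6 (31.9% higher, 30.1% lower). Of 16 phosphodiesterases that hydrolyse cyclic AMP, 11 were tested, and between days 0 and 2 the 3 that rose were the members *Pde4b*, *Pde3b* and *Pde4d*, while 6 fell and 2 were not called, where 73.3% of all genes were called. The largest fall was that of *Pde1b*, which is activated by calcium and calmodulin, from a median of 7.06 to 1.40 CPM (-2.34 ± 0.15, adjusted p = 9.0e-16). From day 2 to day 6, 5 rose and 3 fell, and *Pde1b* rose by 1.37 ± 0.15 (adjusted p = 1.9e-09). As a share of the summed RPKM of the 16 genes, *Pde4b* and *Pde4d* together had a median of 35.3% on day 0, 57.6% on day 2 and 18.3% on day 6. In clone 48 the medians were 39.3, 48.1 and 19.8%, and in clone 66 they were 30.0, 61.9 and 17.6%. *Pde1a*, singled out after its values were seen, had 10.8, 18.6 and 41.5% in clone 48 and 28.8, 20.2 and 56.3% in clone 66 and was the phosphodiesterase with the highest share on day 6. *Pde7a*, singled out in the same way, had 28.1, 20.1 and 24.0% over both clones. *Gm45837*, on the same strand, overlaps 64.3% of the exon bases of *Pde2a*, which is among the 6 that fell. Read pairs over both genes were not counted, so the level of *Pde2a* and the summed RPKM are uncertain. Such shares are of RNA and not of enzyme activity.

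**Figure D5:**
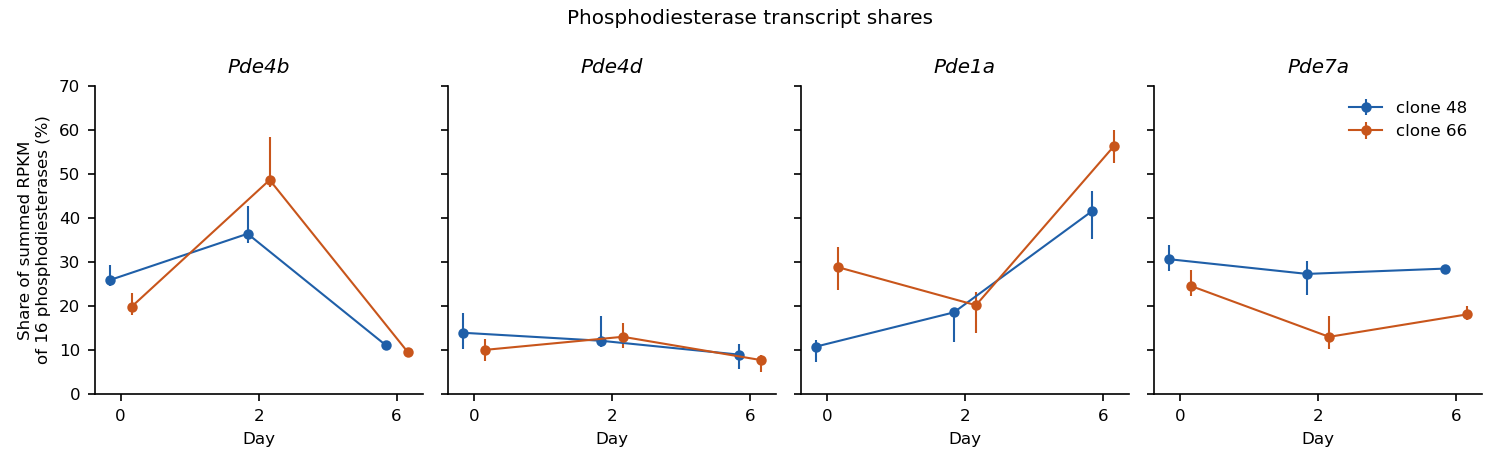
Share of the summed RPKM of 16 cyclic AMP phosphodiesterases taken by *Pde4b*, *Pde4d*, *Pde1a* and *Pde7a* on days 0, 2 and 6 (evenly spaced), in percent, with medians of 6 libraries of clone 48 (blue) and clone 66 (orange) as points and bars from the lowest to the highest library. *Pde4b* peaks on day 2 with 36.4% in clone 48 and 48.7% in clone 66, and *Pde1a* is highest on day 6 with 41.5% and 56.3%.

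Upstream of the phosphodiesterases, cyclases changed in opposite directions. Of 10 adenylyl cyclases 7 were tested, and 2 rose and 2 fell to day 2 (73.3% of all genes called), while 3 rose and 1 fell from day 2 to day 6 (62% called). *Adcy7* fell from a median of 51.0 to 6.83 CPM by day 2 (-3.17 ± 0.13, adjusted p = 4.7e-21) and recovered in part to 13.9 CPM on day 6 (1.21 ± 0.13, adjusted p = 3.8e-10). *Adcy5* rose from 1.61 CPM on day 2 to 21.4 CPM on day 6 (3.69 ± 0.10, adjusted p = 3.3e-25), and *Adcy10*, the soluble cyclase, rose from 0.197 to 3.18 CPM by day 2 (4.02 ± 0.24, adjusted p = 1.6e-16). *Adcy3* was the 1 cyclase that fell from day 2 to day 6.

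Of 5 G protein subunits 4 were tested, and to day 2 *Gnai2* (-1.21 ± 0.10), *Gnai3* (-0.54 ± 0.07) and *Gnas* (-0.38 ± 0.12) fell, with adjusted p of 1.7e-12, 4.6e-08 and 0.0042, beside 37.5% of all genes called lower. *Gnai2* and *Gnai3* encode inhibitory subunits and *Gnas* the stimulatory one. *Gnas* is overlapped by antisense genes over 22.0% of its exon bases. *Gnal* was not called (-0.17 ± 0.27, adjusted p = 0.59), and *Gnai1* had at most 0.0988 CPM. From day 2 to day 6, *Gnai2* rose by 0.73 ± 0.10 (adjusted p = 2.1e-07), and *Gnas* (0.24 ± 0.12, adjusted p = 0.069), *Gnai3* (-0.05 ± 0.07, adjusted p = 0.53) and *Gnal* (0.52 ± 0.27, adjusted p = 0.089) were not called.

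Of 10 receptors that act through Gs, 8 were tested, and to day 2, 4 rose and 2 fell, beside 73.3% of all genes called. *Mc5r*, a melanocortin receptor, rose from a median of 0.335 to 67.2 CPM (6.98 ± 0.31, adjusted p = 3.9e-20) and fell to 9.71 CPM by day 6 (-2.80 ± 0.24, adjusted p = 2.3e-12). *Adora2b*, an adenosine receptor, fell from 5.93 to 0.679 CPM by day 2 (-3.02 ± 0.15, adjusted p = 7.1e-19). From day 2 to day 6, 5 rose and 3 fell, beside 62% of all genes called, and *Adrb3*, the noradrenaline receptor of mature fat cells, went from 0.672 to 67.6 CPM (6.87 ± 0.20, adjusted p = 6.6e-25). An antisense gene overlaps 24.9% of its exon bases.

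Among the effectors, *Rapgef3*, which encodes the exchange factor EPAC1, fell from a median of 13.4 to 0.766 CPM by day 2 (-4.10 ± 0.17, adjusted p = 2.9e-21) and rose to 2.76 CPM by day 6 (1.89 ± 0.17, adjusted p = 1.1e-11). *Rapgef4*, for EPAC2, had at most 0.631 CPM in any library and was not tested. Of 9 protein kinase A subunits and inhibitors 8 were tested, and 2 rose and 5 fell to day 2 (73.3% of all genes called), while 2 rose and 2 fell from day 2 to day 6 (62% called). *Prkar2b*, the regulatory subunit known from fat cells, rose from 183 to 941 CPM (2.37 ± 0.07, adjusted p = 1.6e-24) and fell to 544 CPM by day 6 (-0.80 ± 0.07, adjusted p = 7.0e-12). *Prkar1b* fell from 22.8 to 6.24 CPM by day 2 (-2.02 ± 0.16, adjusted p = 1.1e-13) and rose again to 9.60 CPM by day 6 (0.79 ± 0.15, adjusted p = 3.6e-05).

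Of 8 genes of the CREB family and its coactivators, all of them tested, 1 rose (*Crem*) and 3 fell to day 2, beside 73.3% of all genes called, with 0 calls from day 2 to day 6 by edgeR's test, with 0 at an unadjusted p below 0.05 and a median change of 0.16, beside 62% of all genes called. Between days 0 and 6, 2 rose (*Crem* and *Crtc2*) and 1 fell (*Creb1*), beside 68.3% of all genes called. The largest fall to day 2 was that of the coactivator *Crtc3*, from 7.90 to 4.93 CPM (-0.63 ± 0.21, adjusted p = 0.0075). Of 20 textbook targets of CREB, among them 6 members, 17 were tested, and to day 2, 9 rose and 6 fell, beside 73.3% of all genes called (35.8% higher, 37.5% lower). *Cebpb*, an early factor of fat cell differentiation, rose from a median of 9.85 to 76.6 CPM (2.85 ± 0.13, adjusted p = 5.7e-20) and fell to 35.4 CPM by day 6 (-0.88 ± 0.12, adjusted p = 1.0e-07). An antisense gene overlaps 20.7% of its exon bases. *Ptgs2*, which encodes an inducible cyclooxygenase, fell from 81.8 to 20.5 CPM (-2.26 ± 0.16, adjusted p = 1.3e-14). *Rgs2*, with a median of 0 and at most 0.143 CPM on day 0, had 4.75 CPM on day 2 and 6.06 CPM on day 6. From day 2 to day 6, beside 62% of all genes called, 4 targets rose (*Rgs2*, *Fosb*, *Fos* and the member *Nr4a1*) and 7 were not called. The 6 that fell were the members *Nr4a2*, *Nr4a3*, *Pde4b* and *Pde4d* together with *Cebpb* and *Per1*.

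Genes whose pattern was most like that of a member were taken from all 16722 other tested genes, by the Pearson correlation of log2 CPM over the 12 means of clone, genotype and day. They were *Ubn2*, *Vasp* and *Nyap1* for *Nr4a1* (0.99, 0.98 and 0.98), *Ctr9*, *Pum3* and *Abcf2* for *Nr4a3* (0.99 each), *Lypd6b*, *Abhd18* and *Als2cl* for *Pde3b* (0.98, 0.97 and 0.97), *Fam129b*, *Ifi204* and *AC127331.6* for *Pde4b* (0.99, 0.99 and 0.98), and *Ankrd16*, *Zfp36* and *Gm39041* for *Pde4d* (0.98, 0.98 and 0.97). With so many genes and 12 means, correlations of this size are a description only.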

How the data were processed

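The authors aligned paired-end reads of stranded total RNA libraries with STAR 2.7.0d to GRCm38.p6 (mm10) and used featureCounts 1.6.2 with GENCODE M21, without regard to strand, to count them, and the deposited values are these raw counts per gene. Read pairs over several genes were left out of the counting, which lowers overlapping genes. The deposited totals per library, between 11351078 and 24349263, set the precision of low genes.

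Groups were read from the labels. Counts were scaled by TMM and filtered with filterByExpr in edgeR 4.0.16 (R 4.3.3), which left 16723 genes and 9 of the 10 members. The model held the combinations of genotype and day and a clone term, as in the study, and edgeR's quasi-likelihood test was used in its earlier form (the submitters' processing notes name edgeR 3.24.3). Clone comparisons used a coefficient for each clone, genotype and day. Adjusted p-values are Benjamini-Hochberg values over all genes tested, called below 0.05. The named genes are all 10 members, the member with the smallest unadjusted p per genotype comparison, per pathway list the called gene with the largest rise and fall (mean log2 CPM of at least 1) and every gene of lists under 7 genes, and the 3 genes most correlated with members called to and from day 2. Members and lists were chosen with earlier results of these data known.

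The replicate numbers were taken to pair *Rxra*WT and *Rxra*SA libraries of a clone and day: deviations from the group means correlated by 0.18 to 0.93 in all 18 pairs. In 17 of them the *Rxra*WT library correlated best with its own number. The exception was clone 48 replicate 2 on day 6 (0.471, against 0.488 with number 1). No 2 replicates agreed within sampling noise. Alternatives were RLE factors, library size alone, other filters, a replicate block, no clone term, edgeR's version 4 test, DESeq2 1.42.0, fits restricted to the days under comparison, and omission of single replicates. The replicate block was the combination of clone and replicate number over all fitted days, and not the pair within a day. The omission of 1 library with the lowest total was added after seeing the data. The tests were tried on simulated counts. The promoter sequences are RefSeq's.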

Additional observations from a re-analysis of the deposited data

Results flagged for a closer look

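The clones differed in the time course of 3 members by the interaction of clone and time. For *Pde4b* the log2 change to day 2 was larger in clone 66 by 1.23, and that from day 2 to day 6 was lower by -1.33. For *Pde4d* the corresponding differences were 0.91 and -0.92, and for *Nr4a2* they were -1.25 between days 0 and 2 and -1.61 between days 0 and 6. Clone and library pool cannot be told apart in these values.

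In 56 groups of 6 libraries of a member, genotype and day, 6 had a library far from the other 5 by Dixon's criterion, which chance gives in about 1 of 20 groups. *Nr4a1* in *Rxra*SA on day 2 had 4.52 CPM in clone 66 replicate 3, and the next library had 2.20 CPM. *Nr4a3* on day 6 had 0.624 CPM in *Rxra*WT of clone 48 replicate 3, or 11 counts, and 0.580 CPM in *Rxra*SA of clone 66 replicate 3, or 13 counts. *Pde3a* stood out through its only counts, at 0.0545 CPM in *Rxra*WT on day 2 and 0.0523 CPM in *Rxra*SA on day 6, each of which is 1 count. *Pde4d* in *Rxra*WT on day 6 was low in clone 66 replicate 1, at 17.2 CPM, where the next library had 22.9 CPM.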

How the results depend on the processing

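Of 40 called changes of members between days, between clones or in the interaction of clone and time, 30 kept their call and direction under all alternatives run, and none changed sign. Without single replicates, 2 to 3 members were called between clones on day 6 (reported 4) and 1 to 3 in the interaction of clone and time between days 6 and 2 (reported 2). Differences between clones that were not called changed sign when replicates were left out, between -0.95 and 0.49 for *Pde3b* on day 0 (0.04 without clone 48 *Rxra*SA replicate 1 of day 0), -0.056 and 0.30 for *Pde4d* on day 0, -0.22 and 0.55 for *Nr4a3* on day 2, -0.18 and 0.54 for *Nr4a3* on day 6, and -0.16 and 0.077 for *Creb1* on day 6. The cause was not tested.

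The replicate block changed 1 call of a member between days, that of *Crem* between days 6 and 2 (0.14 with the block), and no call between genotypes, where 0 members were called under every alternative. Scaling by library size alone moved the median change of all genes to day 2 to -0.27 (to -0.22 for day 6 against day 0), and the share of called genes that were higher was 33.6% (34.9%) against 48.9% (48.2%). Between clones on day 6 this share was 41.0% against 51.2%, and in the interaction between days 6 and 0 it was 43.3% against 54.7%. Without a filter it was 63.55% against 52.8% in the interaction between days 2 and 0. *Crem* between clones on day 0 was not called with library size alone (adjusted p = 0.068) or without a filter (adjusted p = 0.071), nor *Nr4a2* on day 6 without a filter (adjusted p = 0.077). Leaving out replicates lowered the genes called in the interaction to as few as 574 (days 2 and 0), 537 (days 6 and 2) and 316 (days 6 and 0), each without clone 48 replicate 2. With the full CRE in place of its core, 0 of the members' promoters had a match in place of 4. Ranks by CPM in place of RPKM moved no member by more than 2 places. Low counts limit *Pde3b*, *Nr4a3* and *Pde3a*.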
